A study of Mus musculus with 28 samples.

Results

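Islet libraries with much cell division RNA were set against islet libraries with little. The 28 libraries of the series, each from the islets of 1 mouse, were grouped by their measured RNA for cell division genes such as Mki67. The high class held 16 libraries, made up of all 6 labelled βKlf6KO saline, all 8 labelled βKlf6KO S961, and 2 labelled control S961 (replicates 4 and 6). The low class held the other 12 libraries, 6 labelled control saline and 6 labelled control S961. The class sizes of 16 and 12 are also the numbers of S961 and saline libraries in the labels. Both genotypes carried floxed Klf6 alleles. Mice labelled βKlf6KO also had 1 copy of Cre recombinase inserted at the Ins1 gene, which limits recombination to β cells and takes the place of 1 Ins1 allele, and mice labelled control had no Cre. All mice were males of 10 to 12 weeks on a mixed C57Bl6 and 129sv background, treated with saline or with S961, a peptide antagonist of the insulin receptor. Islets were cultured overnight after isolation, and RNA came from 120 to 150 islets of each mouse. The stated aim was a search for genes that depend on the genotype, with saline and with S961.

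Most adult β cells rest outside the cell cycle, and insulin resistance is a known stimulus for their replication. A cell that enters the cycle switches on genes in waves: replication factors in S phase, then cyclins, kinesins and spindle checkpoint genes from G2 to mitosis. Mki67 encodes a protein that coats mitotic chromosomes and serves as the usual stain for cycling cells, Ccna2 and Ccnb1 encode cyclins A2 and B1, and Birc5 encodes survivin of the chromosomal passenger complex. In bulk tissue such RNA comes from every cycling cell, whatever its type. Fewer cells of a type and less RNA per cell cannot be told apart in bulk libraries.

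The values that set the classes are given here as a description, without a test. Mki67 was at -0.19 log2 CPM at the lowest, 0.75 at the median and 2.58 at the highest in the low class, and at 2.79, 3.92 and 4.83 in the high class. CPM is the read count of a gene scaled to a common library size, and 1 unit on the log2 scale is a 2-fold step. The neighbours across the boundary were control saline 5 at 2.58 and βKlf6KO S961 8 at 2.79, so the gap there was small beside the range of either class. Within the high class Mki67 fell into 2 ranges. The 8 labelled βKlf6KO S961 libraries lay between 2.79 and 3.81, and the 6 labelled βKlf6KO saline libraries lay between 4.03 and 4.83. Control S961 4 and control S961 6, at 4.18 and 4.35, lay among the labelled βKlf6KO saline libraries and above every labelled βKlf6KO S961 library. The classes did not overlap for Ccna2 (low class -1.44 to 1.63, high class 1.94 to 3.76), Ccnb1 (-2.29 to 0.95, 1.63 to 3.52) or Birc5 (-2.79 to -0.78, -0.06 to 1.95). Of 385 cell division genes measured, 34 did not overlap between the classes and all 34 were higher in the high class.

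**Figure D1:**
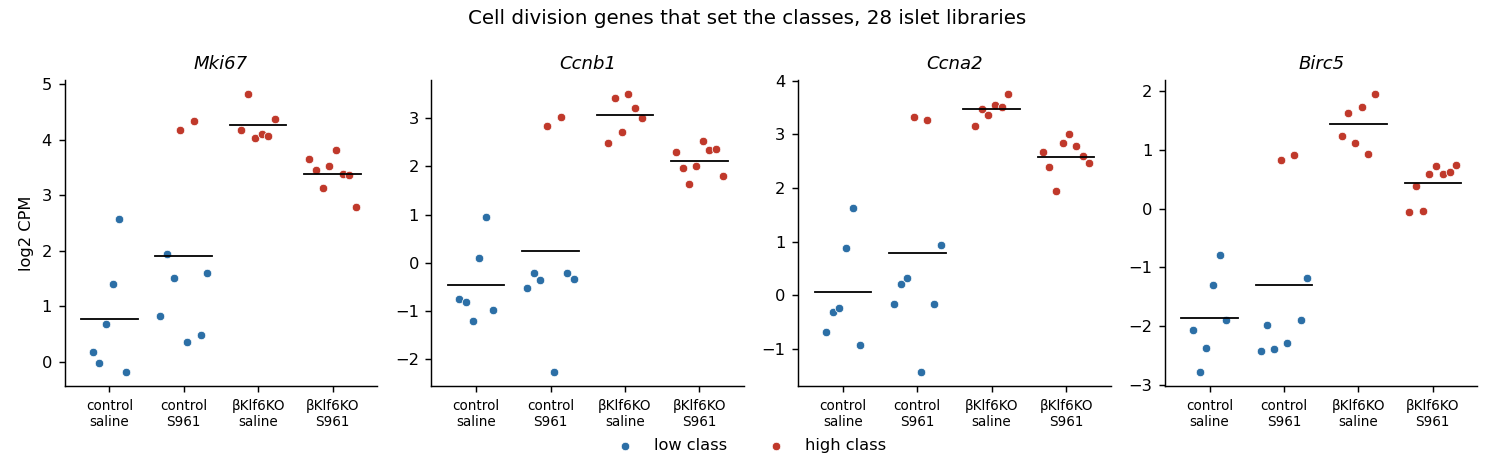
Log2 CPM of Mki67, Ccnb1, Ccna2 and Birc5 in each of the 28 libraries, by labelled group; points are libraries (red high class, blue low class) and bars are labelled group means. Control S961 4 and 6 lie with the labelled βKlf6KO libraries in all 4 plots, and for Mki67 control saline 5 (2.58) is the low library nearest to the high class.

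The region before the Mki67 start is shown because it holds the letters typical of genes expressed late in the cycle: TTTGAA, the core of the cell cycle genes homology region (CHR), and CCAAT, the box bound by NF-Y. It covers the 250 bases upstream of the RefSeq start on the minus strand (GRCm38.p6, chr7:135716380-135716629), 5′ to 3′. Capitals mark 2 TTTGAA and 3 CCAAT matches, in either orientation.
Mki67: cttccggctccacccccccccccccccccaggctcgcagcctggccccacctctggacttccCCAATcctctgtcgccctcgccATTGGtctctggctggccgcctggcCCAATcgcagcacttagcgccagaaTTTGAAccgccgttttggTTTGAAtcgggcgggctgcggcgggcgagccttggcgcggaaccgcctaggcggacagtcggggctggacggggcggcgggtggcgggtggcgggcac
Windows of 300 bases (250 before to 50 after the first RefSeq start) were found by symbol for 10175 of 13591 genes and searched on both strands. TTTGAA stood in 63.0% of the windows of the division genes whose classes did not overlap (17 of 27 with a window). Its share was 32.4% for all division genes and 11.7% for all windows. For the genes outside cell division without overlap, described below, TTTGAA stood in 7 of 35 windows of those higher in the high class and 0 of 16 of those lower. CCAAT stood in 74.1% of the windows of the division genes without overlap, 60.1% of those of all division genes and 38.4% of all windows. It stood in 13 of 35 and 4 of 16 windows of the higher and lower genes outside cell division. A match is a description of the letters and not a binding site.

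The libraries differed in ways other than these classes. Reads over the listed genes ranged from 30415583 to 45001633 in the high class and from 28868638 to 43001024 in the low class. The 4 sequencing lanes each held 4 high and 3 low libraries. The first principal component carried 54.9% of the variance, and its 3 highest scores belonged to control S961 2, control saline 4 and control S961 8, all in the low class. The tissue label was borne out by hormone RNA: Ins1, Ins2, Iapp and Gcg were above 12 log2 CPM in all 28 libraries. RNA of Klf6, the gene targeted by Cre, was at 6.18 to 8.42 in the low class and 6.21 to 7.94 in the high class. By label it was 6.969 ± 0.263 (mean ± SD) in βKlf6KO saline and 7.0 ± 0.425 in control saline. In βKlf6KO S961 it was 7.217 ± 0.515 and in control S961 6.94 ± 0.717. The labelled difference of Klf6 after saline was -0.03 ± 0.29 (SE, limma adjusted p = 0.974). These libraries hold RNA of all islet cells, so the values do not measure Klf6 in β cells alone. The log2 ratio of Ins1 to Ins2, which the Cre insertion should lower, was -1.81 to -1.05 in the 6 labelled βKlf6KO saline libraries and -2.35 to -0.49 in the 6 labelled control saline libraries (means -1.29 and -1.63, two-sided exact permutation p = 0.359). After S961 it was -2.26 to -0.86 in the 8 labelled βKlf6KO libraries and -2.38 to -0.26 in the 8 labelled controls (means -1.94 and -1.31). That difference of -0.62 has the direction of the labels, with overlap between the groups (two-sided exact permutation p = 0.056, 0.112 adjusted over the 2 treatments). Groups below are therefore named as the libraries labelled so.

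Outside cell division, 59 of 13206 genes did not overlap at all between the classes. Of these, 39 were higher in the high class (0.295% of the genes measured) and 20 were lower (0.151%). By a looser count, the high library was the higher of the pair in at least 90% of the 192 pairs of 1 high and 1 low library for 319 genes (2.42%), and in at most 10% of pairs for 389 genes (2.95%). With a filter at 5 CPM in place of 1 CPM these counts were 199 and 358. Genes past these limits are called nearly separated. The higher genes moved by larger steps: 77 of the 319 had class means at least 2-fold apart, against 13 of the 389. They were also expressed at a lower level, with a median of 2.77 log2 CPM against 5.46 for the 389. Over all genes outside cell division that median was 4.25. The part of expression level in the size of the steps was not tested. The median difference over all genes outside cell division was 0.01. The grouping rule used these same libraries, so the counts carry no test. With the 3 libraries of highest first component score left out of the low class, 121 genes did not overlap (63 higher, 58 lower).

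Control S961 4 and 6 could be read apart from the 14 libraries labelled βKlf6KO. Those 14 were compared with the 12 low libraries alone. Of 13206 genes outside cell division, 41 were higher in every labelled βKlf6KO library and 26 were lower. Both control S961 libraries lay above all 12 low libraries for 39 of the 41, and below them for 20 of the 26. For 30 of the 41 and 13 of the 26, both lay inside the range of the labelled βKlf6KO libraries. The 41 and 26 genes were chosen for their distance from the same 12 low libraries. Control S961 4 and 6 were put in the high class on their cell division RNA. These counts are therefore partly fixed by the choice and are a description without a test. The same shares over all genes were not measured.

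Several of the clearest differences were in genes for secreted proteins. C1qtnf1, a secreted member of the C1q and tumour necrosis factor related family (GRCm38 chromosome 11, 118428203 to 118449963), had the largest difference among nearly separated genes with established names and a mean of at least 2 log2 CPM. It stood at -1.03, 0.44 and 1.23 log2 CPM (lowest, median, highest) in the low class and at 2.56, 3.10 and 3.80 in the high class. In control S961 4 and 6 it was 3.14 and 3.80, so the highest value of the series was in a library labelled control. The class means were 7.12-fold apart (means of log2 values here and below). The labelled difference after saline was 2.64 ± 0.54 (SE, n = 6 and 6, limma adjusted p = 0.00453). Each SE of a labelled difference is pooled over all 4 labelled groups, and control S961 holds libraries of both classes. For C1qtnf1 the SD was 0.423 in control saline, 0.315 in βKlf6KO saline and 1.694 in control S961.

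Serpina7, which encodes thyroxine-binding globulin (chromosome X, 139079257 to 139085236), stood at 4.83, 5.72 and 7.01 in the low class and 7.42, 7.78 and 8.34 in the high class. The highest low library was control S961 2, one of the 3 with high first component scores, and the class means were 4.43-fold apart. Gc, the vitamin D binding protein of plasma, which islets express mainly in α cells (chromosome 5, 89417522 to 89457898), stood at 7.36, 7.94 and 8.54 in the low class and 9.27, 9.68 and 9.84 in the high class. The labelled difference after saline was 1.79 ± 0.27 (limma adjusted p = 0.000449). The glucagon gene Gcg itself did not separate, with the high library higher in 47.9% of pairs. Chil6, a chitinase-like protein, had the smallest p after saline among genes outside cell division, at 2.11 ± 0.29 (limma adjusted p = 0.000446). It ranged from 0.26 to 2.19 in the low class and from 2.63 to 3.47 in the high class. Mxra7, a matrix remodelling associated gene, was lower after saline (-0.96 ± 0.14, limma adjusted p = 0.000446), at 2.56 to 3.44 in the low class and 1.88 to 2.71 in the high class. Itih4, a plasma protein that binds hyaluronan, was 3.86-fold apart but overlapped, at -0.09 to 3.65 and 2.63 to 4.93.

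Genes of the secretory pathway differed in both directions. Chgb, which encodes chromogranin B of the dense-core granule (chromosome 2, 132781278 to 132795079), was at 10.39, 10.98 and 11.16 in the low class and 11.73, 12.11 and 12.67 in the high class. Every high library was above every low one, and the class means were 2.39-fold apart. Its labelled difference after saline was 1.05 ± 0.26 (limma adjusted p = 0.0253). Genes for proteins of the endoplasmic reticulum and Golgi went both ways, and 3 higher ones were chosen here after their values were seen. Between class means, Ssr4, a subunit of the translocon-associated complex, was higher by 1.43 log2 units. Tmed3, a p24 cargo receptor, was higher by 0.89 and Sdf4, a calcium-binding Golgi protein, by 0.54. None of these 3 overlapped between the classes. Copa of the COPI vesicle coat, also chosen after its values were seen, was lower with no overlap (-0.35). Of 27 chaperone and unfolded protein response genes, 20 had lower means in the high class.

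Sytl4 encodes granuphilin, the Rab27 effector that docks insulin granules at the plasma membrane. It stood at 9.62, 9.89 and 10.73 in the low class and 8.6, 9.1 and 9.6 in the high class, with no overlap and a labelled difference after saline of -0.75 ± 0.19 (limma adjusted p = 0.0276). Vamp2, the vesicle SNARE synaptobrevin, was lower by 0.46 between class means and was called after saline (-0.41, limma adjusted p = 0.0239). Of 25 measured genes for prohormone processing and granules, 1 was nearly separated upward (Chgb) and 3 downward (Sytl4, Vamp2 and Ero1lb), with a list median of 0.02 beside 0.01 over all genes outside cell division. Their summed RNA was 32925 to 46987 CPM in the high class and 31146 to 40980 in the low class.

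Some of the 20 lower genes that did not overlap have roles in endosomes or lysosomes. No list of such genes was measured, so it is not known whether they are more frequent there than among all genes. Mcoln3, an endolysosomal cation channel of the TRPML family (chromosome 3, 146117450 to 146141806), had the largest difference downward by the same rule. It stood at 3.05, 3.44 and 4.09 in the low class and 1.54, 2.42 and 2.95 in the high class, and the labelled difference after saline was -0.96 ± 0.25 (limma adjusted p = 0.0332). Lamp1, a major glycoprotein of the lysosomal membrane, lay between 9.68 and 9.89 in the low class and between 9.36 and 9.58 in the high class. That difference of -0.31 was small, yet every high library was below every low one. Tollip, an endosomal adaptor (-0.35), and the acid-activated chloride channel gene Tmem206 (-0.49) did not overlap either. The genes named after Mcoln3 in this paragraph were chosen after their values were seen.

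**Figure D2:**
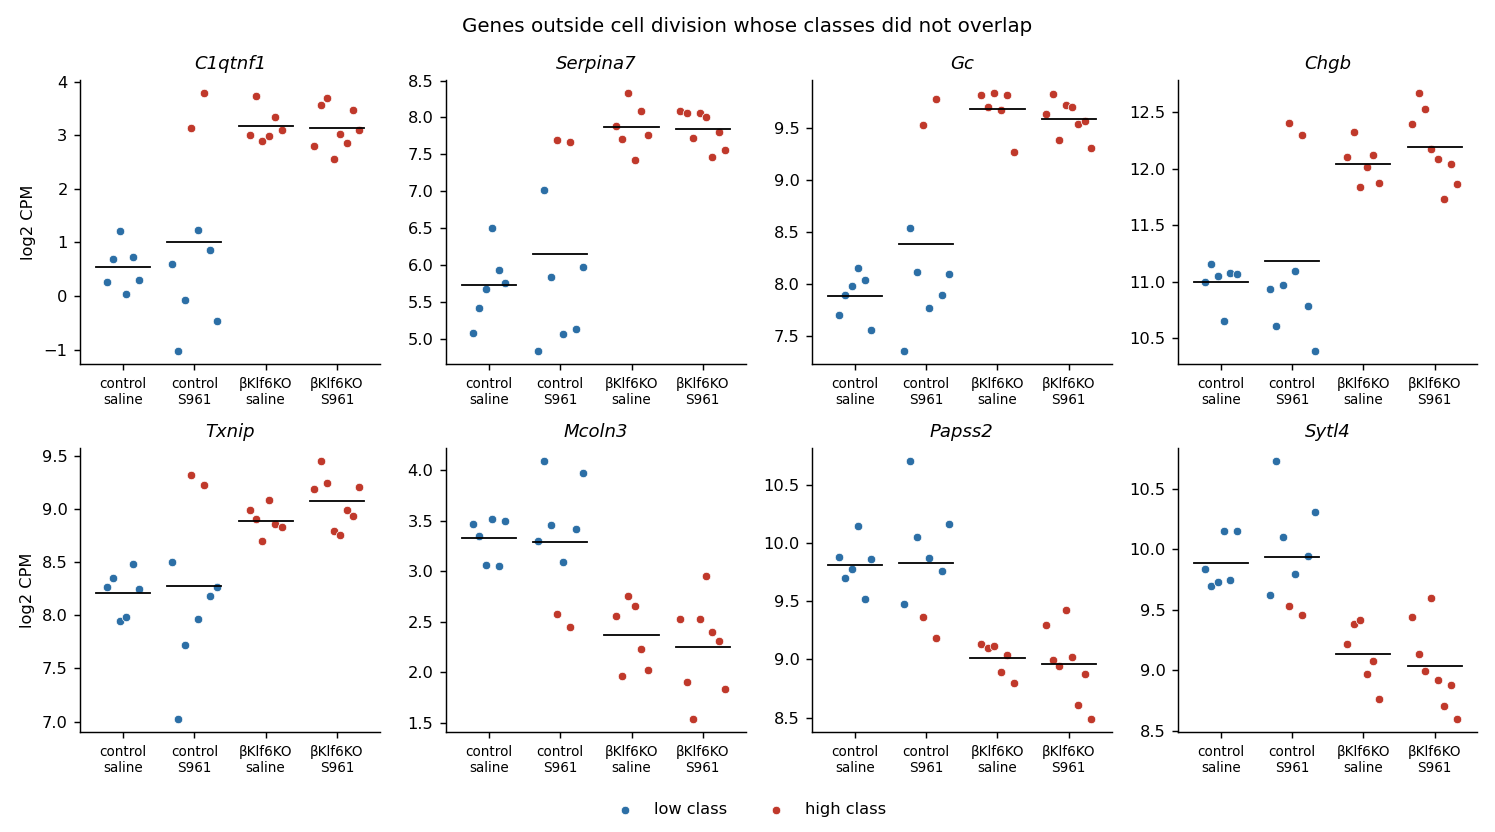
Log2 CPM in each library for 8 genes outside cell division whose classes did not overlap, by labelled group; points are libraries (red high class, blue low class) and bars are labelled group means. For all 8 genes, control S961 4 and 6 lie beyond the other 6 control S961 libraries, for Chgb at 12.41 and 12.30 against at most 11.10.

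Txnip and Arrdc4 are paralogous arrestin-family genes that restrain glucose uptake, and both are induced by ChREBP when glucose is high. Txnip (chromosome 3, 96557957 to 96561883) was at 7.02, 8.21 and 8.50 in the low class and 8.69, 8.99 and 9.45 in the high class, with class means 1.93-fold apart. Both control S961 4 and 6, at 9.32 and 9.23, were among the 4 highest libraries. The labelled difference after saline did not pass (0.68 ± 0.25, limma adjusted p = 0.155). The SD was 0.21 in control saline, 0.133 in βKlf6KO saline and 0.759 in control S961, and all of these enter that pooled SE. Arrdc4 was at 4.47 to 5.45 in the low class and 5.08 to 5.69 in the high class, and the high library was higher in 92.7% of pairs. The other 14 measured members of the ChREBP list were not nearly separated, and the list median was 0.23 (-0.12 with the first principal component removed). The 250 bases before both starts are shown because the pair is a standard model of carbohydrate response; capitals mark CCAAT in either orientation and the E-box CACGTG, the core of the element that ChREBP binds. They are Txnip on the plus strand (RefSeq GRCm38.p6, chr3:96557707-96557956) and Arrdc4 on the minus strand (chr7:68749239-68749488), 5′ to 3′.
Txnip: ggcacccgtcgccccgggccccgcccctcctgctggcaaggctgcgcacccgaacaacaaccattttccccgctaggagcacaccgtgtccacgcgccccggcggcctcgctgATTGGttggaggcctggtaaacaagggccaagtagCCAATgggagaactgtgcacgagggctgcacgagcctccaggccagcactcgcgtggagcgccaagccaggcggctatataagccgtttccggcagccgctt
Arrdc4: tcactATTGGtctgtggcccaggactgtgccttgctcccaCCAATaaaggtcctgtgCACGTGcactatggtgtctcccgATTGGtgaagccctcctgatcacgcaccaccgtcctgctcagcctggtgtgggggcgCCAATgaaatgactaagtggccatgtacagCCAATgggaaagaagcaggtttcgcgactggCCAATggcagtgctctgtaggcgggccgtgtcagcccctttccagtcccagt
CACGTG has 1 match before Arrdc4 and none in the printed Txnip window, and CCAAT has 6 and 2. Only exact matches were searched for, so near matches to the E-box, such as cacgag in the Txnip window, are not marked. The absence of CACGTG there does not show that the Txnip window lacks a ChREBP element. CACGTG stood in 10.1% of all 300-base windows, in 3 of 35 windows of the higher genes that did not overlap and in 2 of 16 of the lower ones.

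Other metabolic genes also separated. Papss2, which makes the sulphate donor PAPS (chromosome 19, 32595790 to 32667187), was at 9.48, 9.87 and 10.71 in the low class and 8.49, 9.03 and 9.42 in the high class, and its labelled difference after saline was -0.80 ± 0.19 (limma adjusted p = 0.0175). Aldh5a1, a mitochondrial enzyme of GABA breakdown, was lower by 0.95, with 1 of 192 pairs out of order, and was called after saline (-0.84, limma adjusted p = 0.0132). Hpgds, a prostaglandin D synthase, was lower by 1.08, and the glycolysis regulator Tigar, chosen after its values were seen, by 0.46 with no overlap. Among higher genes, Ndufa1, a subunit of respiratory complex I, stood at 5.20, 5.71 and 5.80 in the low class and 6.13, 6.54 and 6.90 in the high class. It was called after saline (0.97 ± 0.17, limma adjusted p = 0.00131) and was the sole nearly separated gene of 31 in the nuclear respiratory chain list, whose median was -0.01. Of 27 ATF4 amino acid response genes, Gpt2 (0.55) and Mthfd2 (0.30) were nearly separated upward and the list median was 0.29. No gene of the glycolysis (18 measured, median 0.28) or the cholesterol and fatty acid synthesis list (26, median 0.09) was nearly separated.

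Genes of β-cell identity were mostly a little lower in the high class. Slc2a2, the glucose transporter GLUT2 of rodent β cells (chromosome 3, 28697903 to 28731359), was at 9.44, 10.02 and 10.70 in the low class and 8.55, 9.30 and 9.80 in the high class. The low library that overlapped was control S961 1, and the labelled difference after saline was -0.73 ± 0.19 (limma adjusted p = 0.0362). Slc30a8, the granule zinc transporter, was lower by 0.40, and these were the 2 nearly separated genes of 18 for glucose sensing and channels (median -0.24). Of 21 β-cell transcription factors, 16 had lower means in the high class, with a median of -0.19 (12 of 21 and -0.07 with the first principal component removed). Nkx6-1, needed for β-cell identity, was lower by 0.44 (labelled difference after saline -0.48, limma adjusted p = 0.0311), and Tshz1, a zinc finger factor of β-cell maturation, by 0.48 (-0.56, limma adjusted p = 0.0104). Myt1, a factor of endocrine differentiation, was nearly separated upward (0.26). For these factors control S961 4 and 6 moved little, by -0.14 for Nkx6-1 and -0.07 for Tshz1 against the other 6 control S961 libraries.

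The hormone genes did not separate. The high library was higher in 56.2% of pairs for Ins1 and 51% for Ins2, and the range of Ins2 was 12.31 to 17.24 in the low class and 14.22 to 16.60 in the high class. None of 22 genes normally silent in β cells was nearly separated (median 0.39).

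Of 12 measured dedifferentiation and progenitor genes, 4 were nearly separated and all 4 were higher: Serpina7, the TGFβ decoy receptor gene Bambi, the gastrin gene Gast and the endocrine progenitor factor Neurog3. The list median was 0.50. Bambi stood at 4.54, 5.09 and 5.34 in the low class and 5.49, 5.85 and 6.34 in the high class. It was called after saline (0.86 ± 0.20, limma adjusted p = 0.0154), as was Serpina7, while Gast (1.71, limma adjusted p = 0.121) and Neurog3 (0.62, limma adjusted p = 0.149) did not pass. The summed RNA of the 12 genes was 461.7 to 637.4 CPM in the high class and 263.2 to 399.7 in the low class, with no overlap. Serpina7 (medians of 5.72 and 7.78 log2 CPM in the low and high class) and Bambi are in that sum. Neither overlapped by itself, so the lack of overlap of the sum is partly fixed by them. Of the 12 genes, 11 had higher means in the high class as deposited, and 8 with quantile normalization (median 0.40). Aldh1a3, the usual marker of dedifferentiated β cells, was higher by 0.90 and fell just short of the limit, at 89.6% of pairs.

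Receptor and growth factor genes gave few separated members. Prlr, the prolactin receptor through which pregnancy drives β-cell replication, was lower by 0.88, in a low class whose highest values, 11.48, 10.80 and 10.53, came from control S961 2, control S961 8 and control saline 4. Within lane 4 its class difference was 0.12. Slc18a1, a vesicular monoamine transporter, and Matn2, a matrix protein, were the other 2 nearly separated of 16 prolactin and serotonin genes, lower by 0.50 and 0.43. Igf1r, the receptor for IGF1, was lower by 0.40 (labelled difference after saline -0.41, limma adjusted p = 0.0515) and was the sole nearly separated gene of 27 in insulin and growth factor signalling (median -0.15). Among receptors that were higher, Ramp1, the partner subunit of the CGRP receptor, was 3.44-fold apart, at 0.22 to 2.52 and 2.16 to 3.96.

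Protein synthesis genes split by type. All 29 measured cytosolic ribosomal protein genes had higher means in the high class (median 0.49), and 5 were nearly separated (with the first principal component removed, 22 of 29 had higher means, median 0.18), among them Rpl4, Rpl5, Rpl26 and Rps27. Rpl4, at 9.23 to 10.06 and 9.89 to 10.47, was not called after saline (0.32, limma adjusted p = 0.201). Zfas1, a snoRNA host RNA chosen after its values were seen, did not overlap, at 2.5 to 4.1 and 4.46 to 5.18. Of 27 chaperone and unfolded protein response genes, 3 were nearly separated and all 3 were lower, with a list median of -0.22. They were Pdia4, an ER disulphide isomerase (-0.33), Calr, the calcium-binding chaperone calreticulin (-0.37), and Atf6, a sensor of unfolded protein (-0.39). All 9 measured mitochondrially encoded genes had lower means in the high class (median -0.55) and none was nearly separated. These last 3 lists moved with the first component too: control S961 2, which has its highest score, had the highest summed CPM of the chaperone list (31528 CPM) and of the mitochondrial list (46638 CPM). The part of that component in the differences was not tested.

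Among stress and defence lists, Egln3, an oxygen-sensing prolyl hydroxylase that hypoxia induces, was nearly separated at -0.19 to 0.96 and 0.31 to 1.83. It was called after saline (1.12 ± 0.28, limma adjusted p = 0.0240). Ankrd37, another hypoxia target, was higher by 0.44, and the median of the 16 hypoxia genes was 0.05. Of 10 complement and acute phase genes, C1rl, a serine protease related to C1r, did not overlap (1.0 to 2.96 and 3.1 to 4.0), and Serping1, the C1 inhibitor, was higher in 97.4% of pairs. No member was nearly separated among 18 immediate early genes (median 0.29), 27 interferon response genes (0.24) or 6 Reg family genes (0.63).

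**Figure D3:**
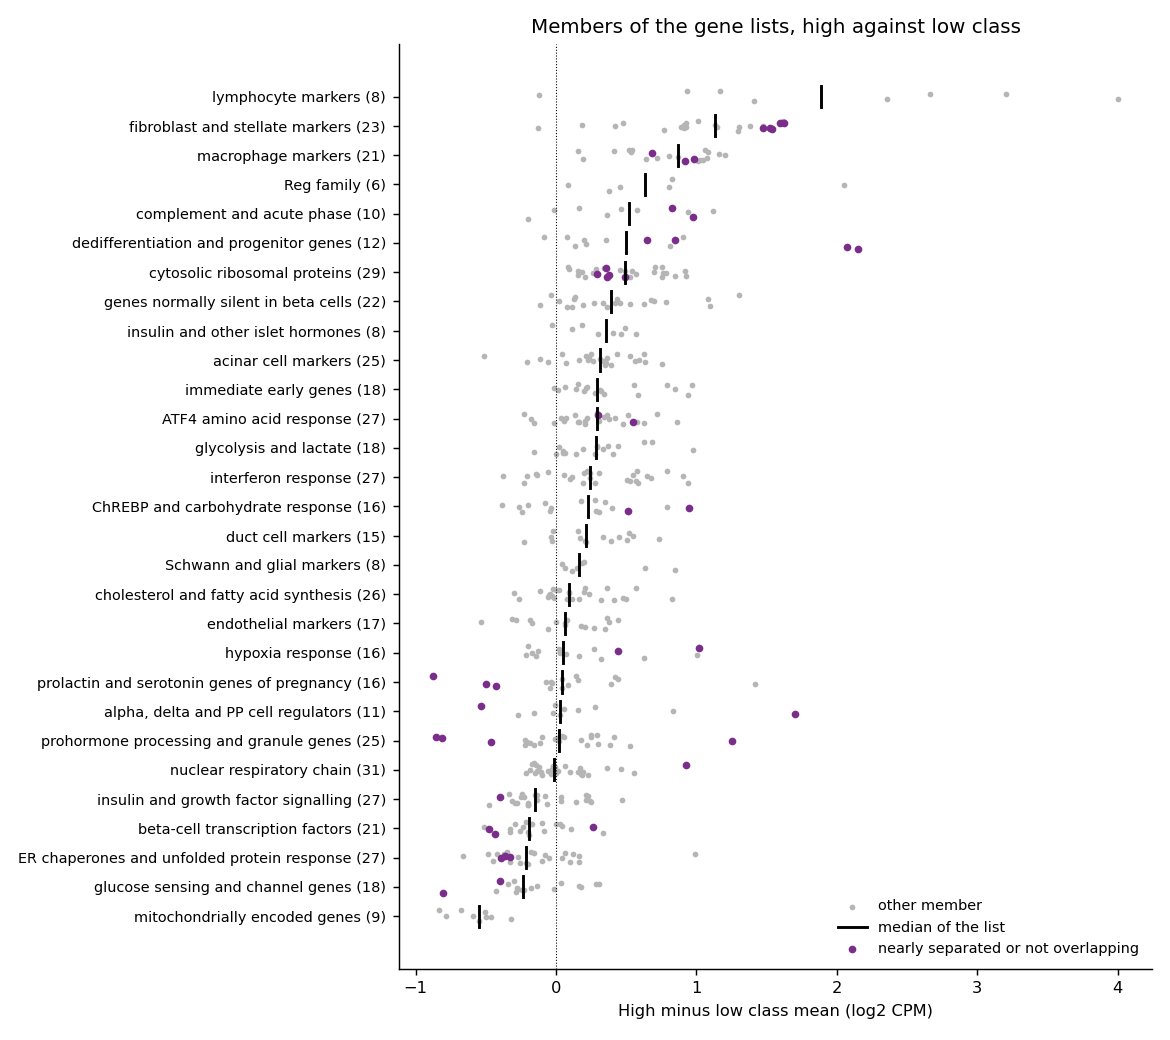
Difference of class means (high minus low, log2 CPM) for each measured member of 29 gene lists, with the number of measured genes in brackets; purple points are nearly separated or not overlapping and black bars are list medians. Most lists have few purple points, and fibroblast, macrophage and lymphocyte markers have the highest medians.

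Most markers of fibroblasts and macrophages had higher means in the high class. Of 23 fibroblast and stellate cell markers, 22 had higher means in the high class (median 1.13) and 5 collagen genes were nearly separated: Col1a1, Col1a2, Col3a1, Col6a1 and Col6a2. Col1a2, a chain of type I collagen, was at 0.74, 2.0 and 2.71 in the low class and 2.56, 3.62 and 4.82 in the high class, with a labelled difference after saline of 1.5 ± 0.38 (limma adjusted p = 0.0265). Cilp, a cartilage matrix protein, was 3.02-fold apart. The summed CPM of the 23 markers was 160 to 542.8 in the high class and 146.5 to 289.5 in the low class, and 11 of the 16 high libraries lay above all low ones. All 21 macrophage markers had higher means in the high class (median 0.87), 3 were nearly separated (Csf1r, Fcgr3 and H2-Aa) and 6 were called after saline. Csf1r, the receptor for the macrophage growth factor CSF1, was at 1.33 to 3.26 and 2.52 to 4.21, and its labelled difference after saline was 1.12 ± 0.29 (limma adjusted p = 0.0357). The sum of the macrophage list was 219.5 to 1052 CPM against 151.9 to 332.7.

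Lymphocyte markers were high in some libraries of the high class. The sum of 8 markers was 2.92 to 776.3 CPM in the high class and 2.29 to 19.1 in the low class, and 8 of 16 high libraries lay above all low ones. The highest sums were in βKlf6KO S961 8 (776.3), βKlf6KO saline 3 (503.2) and control S961 4 (264.4). The library with the highest sum, βKlf6KO S961 8, had the lowest Mki67 of the high class. Control S961 6, with an Mki67 of 4.35, had a lymphocyte sum of 3.71 CPM. The immunoglobulin gene Ighm ranged from -2.75 to 3.23 log2 CPM in the low class and -1.13 to 9.54 in the high class, and no lymphocyte marker was nearly separated. No member was nearly separated among 25 acinar (median 0.31), 15 duct (0.21), 17 endothelial (0.07) and 8 Schwann and glial markers (0.17). The acinar sum was 18639 to 132375 CPM in the high class, highest in βKlf6KO S961 8, and 7263 to 54377 in the low class. Of 11 genes of α, δ and PP cell regulation, Gc was nearly separated upward and Slc7a2, a carrier of cationic amino acids, downward (-0.54), with a median of 0.03. The part of these cells in the other differences was not tested.

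**Figure D4:**
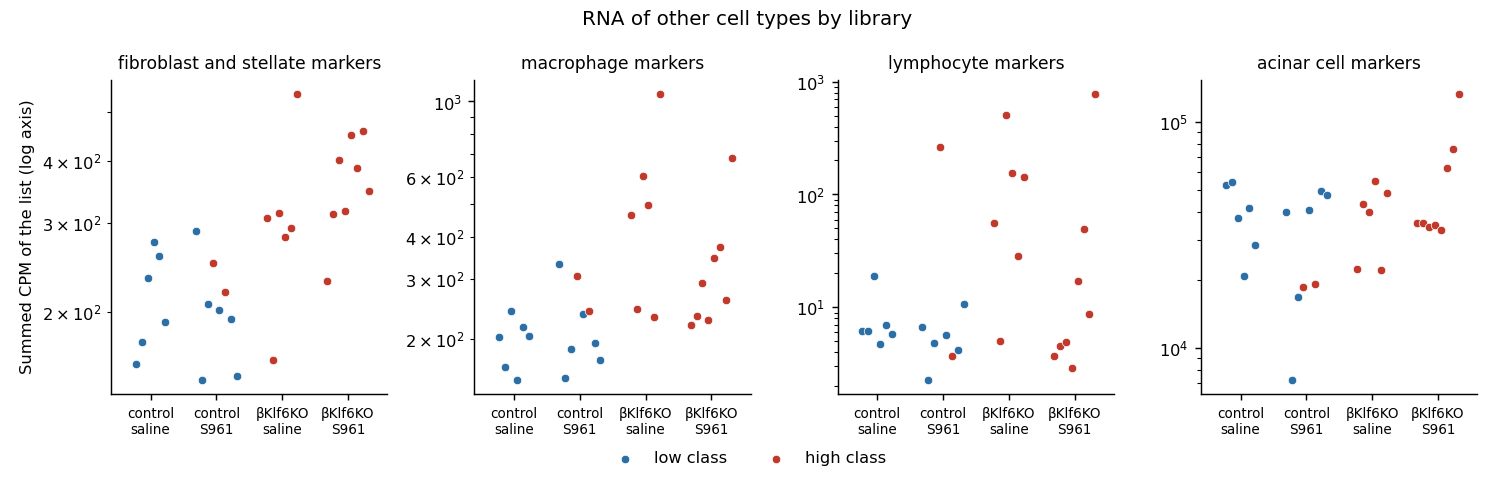
Summed CPM (log axis) of fibroblast, macrophage, lymphocyte and acinar markers in each library, by labelled group; points are libraries (red high class, blue low class). Lymphocyte sums in the high class run from 2.92 to 776.3 CPM, and the fibroblast sums of 11 of 16 high libraries lie above all low ones.

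Genes with other roles completed the largest differences. Dnah9, a heavy chain of the motor of motile cilia (chromosome 11, 65831282 to 66168551), was at 1.83, 2.61 and 3.16 in the low class and 3.75, 4.43 and 5.05 in the high class. The values of control S961 4 and 6 were 4.80 and 4.99, and the labelled difference after saline was 1.76 ± 0.38 (limma adjusted p = 0.00807). Dapl1, a small protein of differentiating epithelia, was at 2.93 to 3.73 and 4.34 to 5.93 and was called after saline (1.89 ± 0.31, limma adjusted p = 0.000695). On the lower side, Thsd4, a protein of extracellular microfibrils, was at 4.24 to 5.01 and 3.04 to 4.18 (labelled difference after saline -0.96 ± 0.16, limma adjusted p = 0.000733). Hspa12a, a divergent member of the Hsp70 family, was at 5.39 to 6.07 and 4.28 to 5.29 (-0.81 ± 0.15, limma adjusted p = 0.00235). Ttc28 was lower by 1.01 and called after saline (limma adjusted p = 0.0138), while Fgfbp3, which binds fibroblast growth factors (-1.11, limma adjusted p = 0.110), Scel (-0.89, 0.0898) and the protocadherin gene Pcdh15 (-0.86, 0.0761) were nearly separated and did not pass after saline.

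A single gene with a predicted name had the largest separation. Gm9195 (chromosome 14, 72426013 to 72491838) had 9 to 116 reads in the 16 high libraries and 0 to 3 reads in the 12 low ones, where 3 reads is the limit that a count of 0 allows. That limit is 0.0685 to 0.105 CPM and covers counting error only. There were 12 and 48 reads in control S961 4 and 6. Gm9195 passed the filter of 1 CPM through high libraries alone, so its place among the kept genes depends on the class where it is high. Anapc16, a subunit of the anaphase-promoting complex, was among the 39 higher genes that did not overlap (0.43) but was not on the list of cell division genes. It and Gm9195 were named after their values were seen.

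The other genes without overlap, named after their values were seen, spanned many functions. Among those higher by at least 2-fold were Tnnc1, a troponin C of heart and slow muscle (1.79), the receptor tyrosine kinase gene Ros1 (1.47), Frem2 of basement membranes (1.42), the glutathione transferase gene Gsto2 (1.28) and P2rx3, an ATP-gated cation channel (1.14). In the low class Ros1 lay under the filter of 1 CPM throughout, at -1.745 to -0.574 log2 CPM, so it was kept through high libraries alone. The low class median of Tnnc1 was also under 1 CPM (-0.313 log2 CPM). Higher by less were Uox, which encodes urate oxidase (0.84), the NADPH oxidase organiser gene Noxo1 (0.82), the decoy interleukin 1 receptor gene Il1r2 (0.79), the gasdermin gene Gsdma (0.66), Slc25a20, the mitochondrial carrier of acylcarnitines (0.49), and the clock gene Cry1 (0.39). Lower ones were the metalloprotease family gene Adam32 (-0.81), Rnf180 (-0.70), Fnip2, a partner of folliculin (-0.58), the cell polarity gene Pard3 (-0.36), Socs5, a suppressor of cytokine signalling (-0.29), and Wdr11 (-0.29). Many of these steps were small, yet the ranges of the 2 classes did not meet.

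The genes that separated upward and downward differed in size. The median length of the longest annotated transcript was 2518 bases for the 319 nearly separated higher genes, 4353 bases for the 389 lower genes and 3392 bases for all genes outside cell division. The median gene span was 17.4 kb, 39.7 kb and 24.3 kb in the same order, and the median transcript GC content 50%, 48.3% and 49.3%. The part of length or GC content in the differences was not tested. The 59 genes that did not overlap lay on 17 chromosomes, with at most 6 on any 1 of them (chromosome 3).

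Within saline the classes coincide with the labelled genotypes, so the fit of the labelled groups gives the error of a high against low difference at 1 treatment. In limma, 284 of 13591 genes were called higher (2.09%) and 94 lower (0.692%) in labelled βKlf6KO saline than in labelled control saline, at an adjusted p below 0.05. Of these, 165 higher and 93 lower genes lay outside cell division. Of the genes that did not overlap between the classes, 29 of 39 higher and 15 of 20 lower were called, but since the same libraries chose them, that count adds no support. The calls rested on single libraries to a degree: leaving out 1 library gave 214 to 532 calls, with the lowest counts without control saline 1 and without βKlf6KO saline 6 (214 each).

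The 8 control S961 libraries are on neither side of the saline difference and hold both classes, but they entered the shared error of the fit: there were 505 saline calls without control S961 4 and 6, and 532 without control S961 2. Of the 165 genes called higher after saline outside cell division, 162 (98.2%) had a higher mean in control S961 4 and 6 than in the other 6 control S961 libraries, beside 73.8% of all genes with a positive difference after saline. For 81 of the 165 (49.1%), both libraries lay above all 6, beside 7.4% of all such genes. Of the 93 genes called lower, 90 (96.8%) had a lower mean and 48 (51.6%) lay below all 6, beside 78.5% and 8.6%. The median difference was 1.05 after saline and 0.63 in the control S961 libraries for the higher genes, and -0.46 and -0.32 for the lower genes. The 2 libraries were put in the high class on their cell division RNA, so these shares are a description with 2 libraries on one side and no test.

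**Figure D5:**
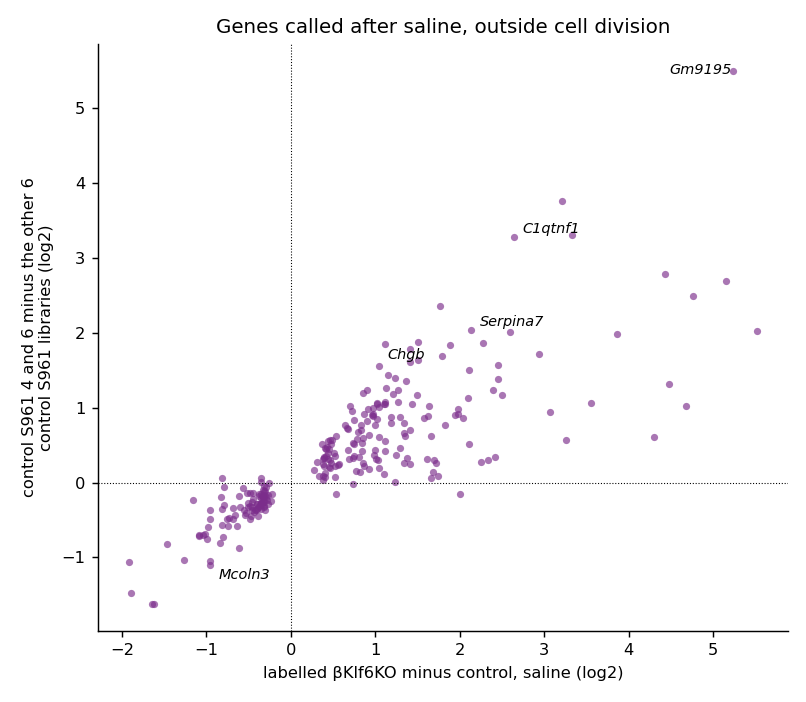
Each point is 1 of the 258 genes outside cell division called after saline; the horizontal axis is labelled βKlf6KO minus control after saline and the vertical axis is control S961 4 and 6 minus the other 6 control S961 libraries, both log2. Of the 165 higher genes, 162 lie above 0 on the vertical axis, and of the 93 lower genes 90 lie below it.

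The labelled S961 difference in βKlf6KO lies wholly inside the high class and is independent of the grouping. Mki67 was 4.27 ± 0.30 log2 CPM (SD, n = 6) after saline and 3.39 ± 0.31 (n = 8) after S961, and the 2 groups did not overlap. The difference of -0.88 ± 0.51 (SE) did not pass in limma (adjusted p = 1). That SE is pooled with the control groups, where the SD was 1.056 after saline and 1.557 after S961. It does not measure the spread of the 2 βKlf6KO groups alone. Of the 385 cell division genes, 77.7% had a negative difference, beside 49.2% of all genes. No gene was called in either direction (0% of 13591, limma; 413 at an unadjusted p below 0.05, smallest adjusted p = 0.998). With values under 1 CPM raised to 1 CPM, 11 genes passed, all 11 of them cell division genes lower after S961, among them Birc5 (-0.97, limma adjusted p = 0.0179), Aurkb and Ttk. Of the 39 higher and 20 lower genes that did not overlap between the classes, 0 reached even an unadjusted p below 0.05 for this difference. Genes without overlap had to have a narrow range inside each class. Their class difference inside control S961 also enters the pooled SE, so that count is partly fixed by the choice. The smallest p values outside cell division were those of S100a13, a calcium-binding protein (3.78 ± 0.14 after S961 against 4.22 ± 0.10, difference -0.44), and Slc16a9, a carnitine transporter (4.26 ± 0.16 against 4.63 ± 0.07, difference -0.37), both with an adjusted p of 0.998 in limma.

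The labelled S961 difference in control islets compares 8 libraries, 2 of them in the high class, with 6 of the low class. No gene was called (0%, limma; 104 at an unadjusted p below 0.05, smallest adjusted p = 0.973), and the smallest p was that of Synpo2, an actin-binding protein of the synaptopodin family (0.66 ± 0.15, limma unadjusted p = 0.000114, adjusted p = 0.973). It was followed by Ube4b, a ubiquitin chain ligase (0.51 ± 0.14, limma adjusted p = 0.973). No gene was called for the difference of the 2 labelled S961 differences either (0%, limma). In that fit 350 genes had an unadjusted p below 0.05, and the smallest adjusted p was 1. The shared error includes control S961, which holds both classes, so the lack of calls does not show that the differences were equal. Synpo2 had the smallest p here too, at -0.97 ± 0.21 (limma adjusted p = 1). For Mki67, a gene that set the classes, the difference of the S961 differences was -2.01. Control S961 4 and 6 enter it and were put in the high class on such values, so it is given without a p. Without control S961 4 and 6, no gene was called in any of these 3 comparisons.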

How the data were processed

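The authors deposited RNA-seq of mouse islets as log2 CPM, in 1 table that lists 14219 genes for all 28 libraries. STAR 2.5.3a, HTSeq 0.9.1, edgeR and the GRCm38 build are named, per the submitters' processing notes. Strand settings of the counting are not given in the sources used here. Reads of genes that overlap, on either strand, may therefore be mixed. The deposited log2 values equal log2 of (reads + 0.5) over a scaled library size, and inverting this gave whole reads within 0.05 for 100% of values. The values were used as deposited, without further scaling. Of the Ensembl IDs, 14210 were found in GENCODE M21, which gave coordinates and transcript lengths. Symbols that were missing (820), turned into numbers or dates (23) or duplicated (24) were looked up by ID in a reference table of gene names. Promoter sequences came from RefSeq (GRCm38.p6).

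The filter asked for 1 CPM or more in 6 or more libraries, which kept 13591 genes and removed 628. The classes were chosen from measured cell division RNA, and the members, the gene lists and the tests were chosen with earlier results of these data known. Class differences are therefore described without a test, by the range, the difference of means and the share of library pairs in order. The 4 labelled groups were fitted together with limma 3.58.1 in R 4.3.3 (empirical Bayes with intensity trend, two-sided, Benjamini-Hochberg adjusted p below 0.05). The fit was also run on simulated data that gave each gene the same spread in all groups. That run does not cover the unequal spread of the real groups. Each library is 1 mouse. Mki67, Ccnb1, Ccna2, Birc5, Klf6, Ins1 and Ins2 were named throughout, with the 12 highest and 12 lowest differences among nearly separated genes outside cell division (mean of at least 2 log2 CPM, established symbol). Each list gave up to 2 nearly separated members, and each labelled comparison its 3 called genes, or 2 uncalled genes, of smallest p. The result of 1 gene that this rule names is not reported here. Other genes, including the further nearly separated list members and single markers, were named after their values were seen. Alternatives changed the filter, the floor, the scaling, the fit, the lanes and the libraries used.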

Additional observations from a re-analysis of the deposited data

Results flagged for a closer look

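In 248 sets of 1 named gene in 1 labelled group, 19 had a library that stood apart from its group, by a gap that chance gives in about 1 of 20 sets. All values are log2 CPM, and none of these libraries was left out. Control saline 4, one of the 3 libraries of highest first component score, was apart for 7 of them: lowest of its group for Chgb (10.65), Mthfd2 (6.85), Ins2 (13.16), Ankrd37 (1.8), Rpl4 (9.46) and Ndufa1 (5.31), and highest for Prlr (10.53). Control S961 2, another of the 3, was lowest for Rpl4 (9.23) and for C1rl (1.0). In labelled control saline, replicate 1 was lowest for Col1a2 (0.74) and replicate 3 was highest for Egln3 (0.96). In labelled βKlf6KO saline, replicate 2 was highest for Ube4b (6.69) and Igf1r (7.19), and replicate 6 was lowest for Gc (9.27) and Scel (2.78). In labelled βKlf6KO S961, replicate 4 was lowest for S100a13 (3.45), replicate 6 lowest for Egln3 (0.51), and replicate 8 lowest for Thsd4 (3.04) and highest for H2-Aa (6.15). Replicate 8 of that group also had the highest sums of lymphocyte and acinar markers.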

How the results depend on the processing

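Class counts outside cell division moved with the first principal component. Without the 3 libraries of highest score, 121 genes did not overlap in place of 59, with 3 fewer libraries to overlap, and with the component removed 1325 genes were nearly separated in place of 708 (476 higher, 849 lower). With a filter at 5 CPM, 557 were (199 higher, 358 lower). Leaving out 1 library gave 59 to 77 genes without overlap and 660 to 890 nearly separated. The labelled difference after saline gave 378 calls, against 117 with a filter at 5 CPM (fewer genes tested), 690 without the 3 libraries, 2821 with the component as a covariate and 3018 with library weights, and 214 to 532 with 1 library left out. It was over 1.5 times lower without control saline 1, 2, 3 or 6 (214, 230, 243, 234) and without βKlf6KO saline 3, 4 or 6 (242, 217, 214). The cause of the other changes was not tested. The labelled S961 difference in βKlf6KO gave 0 calls, 11 with a floor at 1 CPM and 2 with library weights (S100a13 and Slc16a9). No other alternative gave a call for S961 in either genotype or for the difference of the S961 differences. Same-numbered libraries were not paired by the labels, and correlations of their deviations ran from -0.54 to 0.46 for genotype after saline, with 0 of 6 libraries closest to their own number. For S961 they ran from -0.58 to 0.48 in control (0 of 6) and from -0.61 to 0.56 in βKlf6KO (3 of 6). The fit with a replicate block gave 354 calls there (280 higher, 74 lower) and 0 elsewhere. Of 57 named genes that were nearly separated, 1 changed the sign of its class difference: Prlr, at 0.124 within lane 4. The 5 named genes that were not (Klf6, Ins1, Ins2, S100a13 and Ube4b) all changed sign under some alternative. Of 32 named genes called after saline, 18 were called under every alternative, and the highest adjusted p among the others was 0.193 (limma). With the component removed, the medians of the ChREBP (-0.12), hormone (-0.04), acinar (-0.05), duct (-0.02) and glycolysis (-0.001) lists changed sign, and the granule, endothelial, nuclear respiratory and α, δ and PP lists, with medians near 0, did so under at least 1 scaling. A count of 0 allows up to 3 reads (0.0685 to 0.105 CPM), so no fold is given below that.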
